A study of Mus musculus with 69 samples.

Results

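The effect of Zeb1 derepression on the pituitary of older female mice was examined by comparing 3 libraries from homozygous knock-in mice (Zeb1 200M) with 4 libraries from wild-type mice (WT). The members of this comparison are those 7 libraries, of 69 in the series, and every gene counted in them, which came to 49585 gene IDs, of which 14711 had enough counts to be tested. All mice were C57BL/6J females of 28 to 36 weeks. They had completed a trial of breeding with males and were singly housed while their estrous cycles were staged. They were killed in proestrus, the stage that precedes ovulation. The study reports that most homozygous knock-in females bore no litter in that trial. It also reports that breeding was extended for all of these females but not for every mouse. Litter history and time with males could therefore differ between the groups compared here, and neither is given per library. Their part in the differences below was not tested. On both Zeb1 alleles, the 200M mice carried point mutations in the 3′ UTR sites that miR-200a and miR-200b recognise, a constitutive knock-in present in every cell of the animal. WT mice carried neither mutant allele. The breeding cohort drew on lines from 2 ES cell clones, 3C5 and 6B6, and their intercross, and the clone behind each library is not given in the sources used here. Each library came from the whole pituitary of a different mouse, so the anterior, intermediate and posterior lobes were measured together. In such bulk tissue, fewer cells of a type and less RNA per cell cannot be told apart.

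ZEB1 is a zinc finger protein that binds E-box sequences and represses epithelial genes, and it also represses the genes that encode the miR-200 microRNAs. These microRNAs in turn pair with the 3′ UTRs of Zeb1 and its relative Zeb2, which closes a double-negative loop. The anterior pituitary is an epithelial gland built of lactotropes (prolactin), somatotropes (growth hormone), gonadotropes (luteinizing and follicle-stimulating hormone), corticotropes (adrenocorticotropic hormone) and thyrotropes (thyrotropin), while the intermediate lobe holds melanotropes and the posterior lobe holds axon endings of hypothalamic neurons among glial pituicytes.

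The mature miR-200 sequences are shown because the knock-in removes the sites they recognise. They come from RefSeq (GRCm38.p6), the capitals mark the seed (bases 2 to 8), and the first 3 share 1 seed while the last 2 share another that differs from it at 1 base.
miR-200b-3p (chr4:156055685-156055706, minus strand): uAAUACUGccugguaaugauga
miR-200c-3p (chr6:124718324-124718346, minus strand): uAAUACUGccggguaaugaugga
miR-429-3p (chr4:156053916-156053937, minus strand): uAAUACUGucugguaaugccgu
miR-200a-3p (chr4:156054911-156054932, minus strand): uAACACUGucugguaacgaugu
miR-141-3p (chr6:124717917-124717938, minus strand): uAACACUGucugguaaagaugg

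The annotated 3′ UTR of Zeb1 is 2401 bases long in GENCODE M21 and holds 3 copies of CAGTATTA, the 8mer that pairs with the first seed, and 0 of CAGTGTTA, the 8mer for the second. Shorter matches to either seed were not counted. The 3′ UTR of Zeb2, which was not mutated in these mice, holds 4 and 2 copies over 4941 bases.

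Promoters of 6 genes that were lowered in 200M pituitary are shown because they hold the letters CAGGTG or CAGGTA, which are the core of the sequence ZEB1 is known to bind. Each runs from 250 bases before to 50 after the RefSeq start site (GRCm38.p6, printed in the direction of the gene). Capitals mark CAGGTG or CAGGTA, or CACCTG or TACCTG where the motif lies on the other strand. CAGGTG is also one form of the general E-box CANNTG.
Gm13648 (chr4:156059753-156060052, minus strand): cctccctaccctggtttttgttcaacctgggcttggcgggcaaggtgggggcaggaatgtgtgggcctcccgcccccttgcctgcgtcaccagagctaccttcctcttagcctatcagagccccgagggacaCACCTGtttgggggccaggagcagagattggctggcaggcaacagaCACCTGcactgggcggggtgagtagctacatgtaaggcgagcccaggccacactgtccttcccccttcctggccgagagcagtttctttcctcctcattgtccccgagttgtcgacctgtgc
Capn8 (chr1:182564757-182565056, plus strand): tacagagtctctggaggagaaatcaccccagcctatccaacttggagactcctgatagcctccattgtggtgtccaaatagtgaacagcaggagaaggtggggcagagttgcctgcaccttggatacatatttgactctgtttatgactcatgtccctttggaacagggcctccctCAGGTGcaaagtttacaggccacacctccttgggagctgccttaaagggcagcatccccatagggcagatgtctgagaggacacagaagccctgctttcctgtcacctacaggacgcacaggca
Rab25 (chr3:88548230-88548529, minus strand): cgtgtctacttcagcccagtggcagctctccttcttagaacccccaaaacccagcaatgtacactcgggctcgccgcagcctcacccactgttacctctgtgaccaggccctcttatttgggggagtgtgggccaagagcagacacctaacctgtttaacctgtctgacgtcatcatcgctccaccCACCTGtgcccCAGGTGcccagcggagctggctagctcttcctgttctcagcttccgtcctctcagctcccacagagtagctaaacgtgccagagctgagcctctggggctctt
Ap1m2 (chr9:21312284-21312583, minus strand): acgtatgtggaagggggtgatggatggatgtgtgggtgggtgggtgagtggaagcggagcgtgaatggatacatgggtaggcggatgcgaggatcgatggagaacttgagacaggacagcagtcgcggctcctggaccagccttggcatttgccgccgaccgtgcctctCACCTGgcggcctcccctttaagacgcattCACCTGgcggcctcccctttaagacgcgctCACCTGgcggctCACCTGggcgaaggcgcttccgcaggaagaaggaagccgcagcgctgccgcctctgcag
Epcam (chr17:87635729-87636028, plus strand): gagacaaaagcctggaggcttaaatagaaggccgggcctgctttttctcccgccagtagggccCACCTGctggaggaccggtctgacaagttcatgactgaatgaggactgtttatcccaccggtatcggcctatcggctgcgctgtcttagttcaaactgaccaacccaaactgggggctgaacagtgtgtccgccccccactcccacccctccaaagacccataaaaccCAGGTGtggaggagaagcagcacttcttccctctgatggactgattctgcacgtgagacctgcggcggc
Cdcp1 (chr9:123215989-123216288, minus strand): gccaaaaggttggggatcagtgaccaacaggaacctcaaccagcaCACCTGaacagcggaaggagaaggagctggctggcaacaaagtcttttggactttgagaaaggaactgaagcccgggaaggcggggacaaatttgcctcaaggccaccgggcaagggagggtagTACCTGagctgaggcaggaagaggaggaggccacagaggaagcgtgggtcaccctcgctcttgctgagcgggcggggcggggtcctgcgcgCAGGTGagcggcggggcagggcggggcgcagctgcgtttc

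Gm13648 is the host transcript of miR-200b, miR-200a and miR-429, Epcam an adhesion molecule, Rab25 and Ap1m2 components of epithelial membrane traffic, Cdcp1 a transmembrane protein and Capn8 a calpain protease. Copies numbered 2 in Gm13648, 2 in Rab25, 4 in Ap1m2, 2 in Epcam, 3 in Cdcp1 and 1 in Capn8. A match describes the letters and does not show that ZEB1 was bound there. A RefSeq promoter entry for Esrp1, named below, was not in the table used.

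Total counts per library ranged from 5265108 to 12957678 in WT and from 4527753 to 7300922 in 200M, with 21112 to 24021 genes detected. Levels are given below in CPM, which are counts brought to a common library size that is scaled by the trimmed mean of M-values (TMM), and TMM factors were 0.928 to 0.967 in WT and 1.05 to 1.10 in 200M. Prolactin alone took 15.8 to 19.5% of the counts in WT and 5.67 to 7.53% in 200M. The first principal component of the 2000 most variable genes held 65.5% of the variance and put every WT library on the other side of zero from every 200M library. WT replicates 2 and 3 stood apart from WT replicates 1 and 4 in immediate early genes, which are induced within minutes of stimulation: the summed level of 21 such genes was 642 to 6226 CPM in WT and 581 to 1638 CPM in 200M. Counts over a list that moved by over 1.5 times without those 2 libraries are given without them too, or by the named calls that were lost.

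Zeb1 (ENSMUSG00000024238) was higher in 200M pituitary, as the targeted gene of the design. Its level was 54.7, 57.6, 61.1 and 56.1 CPM in WT replicates 1 to 4 and 91.3, 81.5 and 78.9 CPM in 200M replicates 1 to 3. The groups did not overlap, and the lowest 200M library lay above the highest WT library. The log2 fold change was 0.55 ± 0.09 (SE), a 1.46-fold rise (adjusted p = 0.000833, edgeR quasi-likelihood F test with Benjamini-Hochberg adjustment over the 14711 genes, which is the test behind every adjusted p below unless another is named). Zeb2 was measured at 10.3, 5.75, 7.69 and 9.16 CPM in WT and 10.2, 11.1 and 14.0 CPM in 200M. These ranges overlapped, and the difference of 0.53 ± 0.21 on the log2 scale did not pass the test (adjusted p = 0.0983).

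The host transcripts of both miR-200 clusters were lower in 200M. Gm13648 stood at 5.78, 7.01, 5.32 and 8.52 CPM in WT and at 0.626, 1.37 and 0.406 CPM in 200M, without overlap (log2 fold change -2.91 ± 0.35, adjusted p = 0.000141). Gm15884, the host of miR-200c and miR-141, stood at 1.51, 2.42, 1.97 and 1.81 CPM in WT and at 0.417, 0.749 and 0.609 CPM in 200M, again without overlap (log2 fold change -1.64 ± 0.38, adjusted p = 0.00907). Gm15884 was so low that it did not pass the count filter when WT replicate 2 or WT replicate 4 was left out, and its adjusted p was 0.0537 to 0.0714 by DESeq2 and without WT replicates 2 and 3. The reads carry no strand, so those of Gm15884 and the overlapping Phb2 on the other strand cannot be told apart.

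Across the transcriptome, 3153 of 14711 genes (21.4%) differed between 200M and WT at an adjusted p under 0.05. Of these, 1716 (11.7% of genes tested) were raised in 200M and 1437 (9.77%) were lowered, and the median log2 fold change of all genes tested was -0.01. Every count over a list given below stands beside these shares of 11.7% and 9.77%. A difference of at least 2-fold was reached by 484 raised genes (3.29%) and 353 lowered genes (2.4%). At least 4-fold was reached by 89 raised and 87 lowered genes, and at least 8-fold by 17 and 26. Raised genes were the less abundant in WT, with a median WT level of 19.1 CPM against 38.0 CPM for lowered genes. In 200M the order was reversed, at 31.3 CPM for raised genes and 25.3 CPM for lowered genes, as the direction of the calls favours. Raised genes had the longer transcripts, with a median exon length of 5601 bases against 3849. Leaving out a single 200M library reduced the total to 2062 (without replicate 1), 1875 (replicate 2) or 1867 (replicate 3), and leaving out WT replicates 2 and 3 together left 1966 calls, 1253 raised and 713 lowered. The plot of fold change against mean level shows the lowered genes reaching further from zero than the raised ones.

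**Figure D1:**
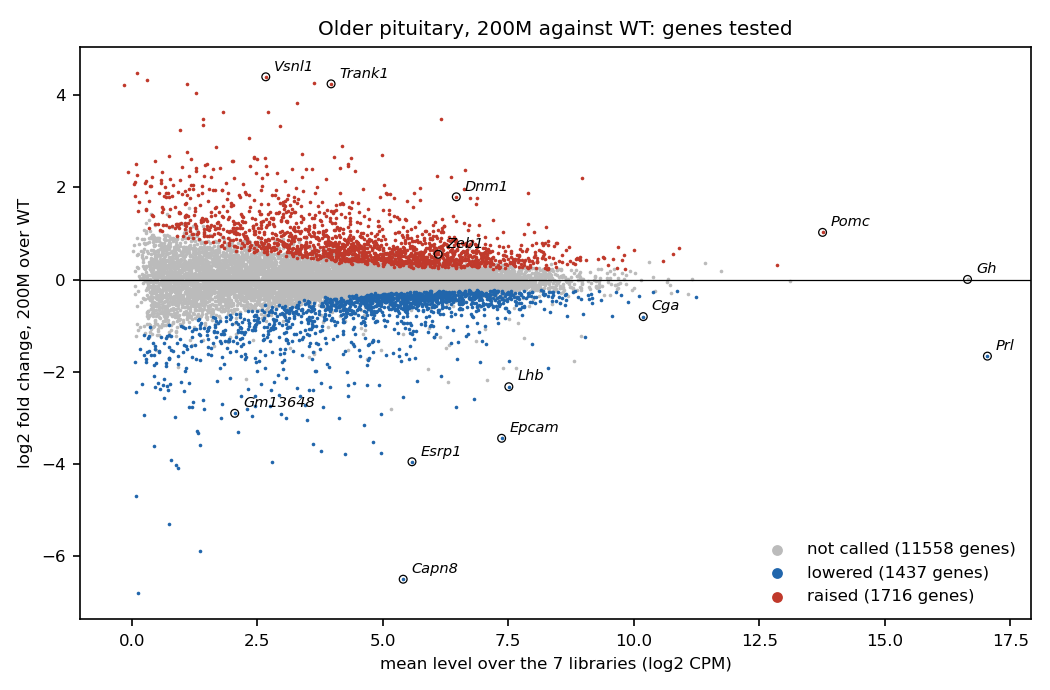
The log2 fold change of 200M over WT (y axis) is plotted against the mean level of each of the 14711 genes tested (x axis, log2 CPM over the 7 libraries), with raised genes, lowered genes and genes not called in separate colours. The 1716 raised and 1437 lowered genes spread over the whole range of levels, and Capn8 lies lowest of the labelled genes at -6.51.

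Genes of the epithelial state were lower in 200M. In the list of epithelial junction and polarity genes, 34 of 50 members tested were lowered, 0 were raised and 16 were not called, with a median log2 fold change of -0.96. Of the 9 epithelial splicing and transcription regulators tested, 4 were lowered and 0 raised (median -0.52). Epcam, Esrp1 and Rab25 are genes that the study names for 200M pituitary of young mice, so their place in the lists was not independent of such data.

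Esrp1, an RNA-binding protein that directs epithelial splicing, had the smallest p of any gene. Its level was 84.3, 78.9, 79.1 and 77.7 CPM in WT and 5.63, 5.24 and 4.46 CPM in 200M (log2 fold change -3.96 ± 0.12, adjusted p = 2.90e-09). The WT libraries lay within 7 CPM of each other and the 200M libraries within 2 CPM. Among transcription factors of the list, Ehf, an epithelial ETS factor, stood at 28.5, 28.3, 36.7 and 36.1 CPM in WT and 6.47, 5.37 and 8.92 CPM in 200M (log2 fold change -2.25 ± 0.18, adjusted p = 6.20e-06). Elf3, another ETS factor, gave -0.52 ± 0.20 and did not pass (adjusted p = 0.088).

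Among cell surface and traffic genes, Epcam stood at 254, 274, 241 and 314 CPM in WT and 19.4, 29.3 and 24.7 CPM in 200M (log2 fold change -3.45 ± 0.15, adjusted p = 3.09e-08). Rab25, a small GTPase of recycling endosomes, stood at 49.9, 54.6, 54.0 and 48.4 CPM in WT and 3.75, 4.37 and 3.04 CPM in 200M (log2 fold change -3.76 ± 0.14, adjusted p = 1.92e-08). Ap1m2, the epithelial subunit of the AP-1B sorting adaptor, stood at 47.3, 47.7, 42.6 and 47.3 CPM in WT and 3.75, 4.49 and 3.45 CPM in 200M (log2 fold change -3.54 ± 0.14, adjusted p = 1.92e-08). In each of the 3 genes the highest 200M library lay more than 8-fold below the lowest WT library.

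The list could also be read by structure, in groupings made after the values were seen. All 3 keratins tested were lowered, from -0.95 for Krt18 to -3.78 for Krt7, as were 6 of 8 claudins, the strand-forming proteins of tight junctions, with a median of -1.21. Cldn12 (0.10) and Cldn7 (0.08) were the claudins not called. Of 9 genes of the desmosome and its cornified envelope partners, 6 were lowered, but Dsp, the desmoplakin that anchors the desmosome to keratin, gave -0.05. Crb3, Llgl2 and Patj of the 6 polarity genes were lowered, while Pard3, Pard6b and Prkci were not called. All 4 membrane serine proteases and inhibitors (Spint1, Spint2, St14 and Prss8) were lowered, from -0.71 to -2.20. Cdh1, the E-cadherin of adherens junctions, stood at -0.05 and was not called, and Tjp1, the most abundant list member not called, was measured at 84.2, 79.3, 81.0 and 97.9 CPM in WT and 98.4, 90.0 and 101 CPM in 200M (log2 fold change 0.17 ± 0.09, adjusted p = 0.225).

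The lowered genes of smallest p included several outside the lists. Capn8, a calpain protease known from gastric mucus cells, showed the largest fall among genes whose libraries did not overlap and whose higher group averaged at least 5 CPM: it stood at 58.6, 81.2, 82.6 and 72.1 CPM in WT and 1.25, 0.749 and 0.406 CPM in 200M (log2 fold change -6.51 ± 0.24, adjusted p = 1.92e-08). Tmc4, a transmembrane channel-like protein, stood at 134, 143, 130.3 and 146 CPM in WT and 22.9, 21.5 and 16.4 CPM in 200M (log2 fold change -2.77 ± 0.12, adjusted p = 3.09e-08). Cdcp1 stood at 67.1, 62.2, 66.3 and 68.3 CPM in WT and 10.0, 11.7 and 12.0 CPM in 200M (log2 fold change -2.54 ± 0.11, adjusted p = 3.09e-08). None of these groups overlapped, and the spread within each group was small beside the difference. Tmem184a, Arhgef5 (a guanine nucleotide exchange factor) and Myo5c (an unconventional myosin of secretory traffic) changed by -2.93, -2.10 and -1.70. Under the same limits as Capn8, Fam187b and Krt7 completed the largest falls, at -3.95 and -3.78. Tmc4 shares exon sequence with Leng1 on the same strand, so reads in the shared stretch could not be assigned to either by the counting used.

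**Figure D2:**
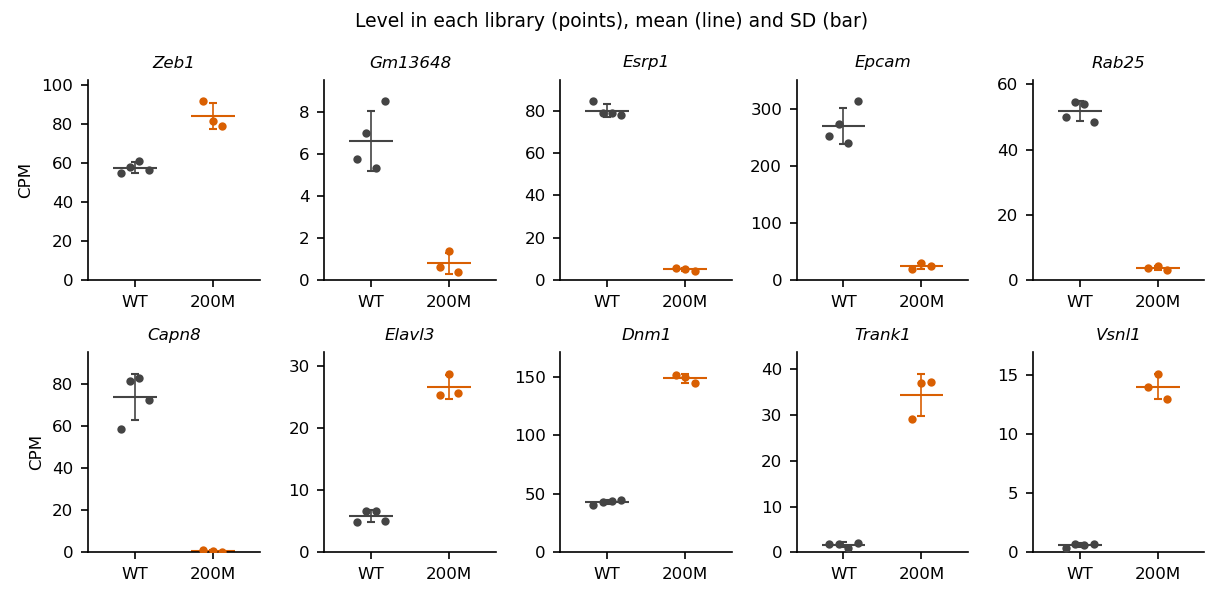
Level in CPM (y axis, linear from 0) of 10 genes in each WT library (4 points) and each 200M library (3 points), with the group mean as a line and the SD as a bar. In each panel the WT and 200M points do not overlap: Zeb1, Elavl3, Dnm1, Trank1 and Vsnl1 are higher in 200M, and Gm13648, Esrp1, Epcam, Rab25 and Capn8 are lower.

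Genes best known from neurons were raised in 200M across several of the lists. In neurotransmitter receptors 25 of 39 members tested were raised and 0 lowered (median log2 fold change 0.68), in calcium, sodium and HCN channels 24 of 38 were raised and 1 lowered (median 0.61), and in the neuronal cytoskeleton and growth cone 21 of 35 were raised and 0 lowered (median 0.38). In synaptic vesicle and exocytosis 31 of 61 were raised and 3 lowered (median 0.37), in potassium channels 20 of 51 were raised and 6 lowered (median 0.49), and in neuronal splicing regulators 11 of 19 were raised and 0 lowered (median 0.41). These shares stand beside 11.7% raised and 9.77% lowered over all genes. Without 200M replicate 2 the raised calcium, sodium and HCN channels numbered 15. The median exon length of these 6 lists was 5287 to 9620 bases against 4412 for all genes tested. With the trend of fold change with exon length removed, the raised members numbered 24 of the neurotransmitter receptors, 23 of the calcium, sodium and HCN channels, 18 of the cytoskeleton, 28 of the synaptic, 21 of the potassium channel and 11 of the splicing list, and the lowered members 1, 2, 1, 5, 6 and 0 in the same order.

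Neuronal splicing regulators included all 3 ELAVL genes and all 3 RBFOX genes tested. Elavl3, an RNA-binding protein of differentiating neurons, stood at 4.81, 6.67, 6.70 and 5.11 CPM in WT and 25.2, 28.7 and 25.6 CPM in 200M (log2 fold change 2.19 ± 0.15, adjusted p = 1.67e-06). Rbfox1 stood at 2.89, 3.84, 2.37 and 4.15 CPM in WT and 13.8, 15.7 and 15.6 CPM in 200M (log2 fold change 2.13 ± 0.19, adjusted p = 1.42e-05). Both genes were several-fold higher in every 200M library than in any WT library. Celf3, the most abundant member, stood at 343, 411, 415 and 323 CPM in WT and 312, 323 and 319.9 CPM in 200M and was not called (log2 fold change -0.23 ± 0.10, adjusted p = 0.121).

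In the synaptic list, Dnm1, the neuronal dynamin that cuts endocytic vesicles from the membrane, stood at 40.3, 43.0, 43.8 and 44.4 CPM in WT and 152, 150.1 and 145 CPM in 200M (log2 fold change 1.80 ± 0.08, adjusted p = 3.09e-08). Nrxn2, a presynaptic adhesion receptor, and Nrsn2, a neurensin of vesicle membranes, changed by 1.38 ± 0.09 and 2.65 ± 0.19 (adjusted p = 9.24e-07 and 1.93e-06). The vesicle machinery did not move as one. Of 12 SNARE proteins and their regulators 5 were raised, among them Cplx1, Snap25, Stx1a and Nsf, and 7 were not called. Vamp2, the abundant vesicle SNARE, stood at 277, 346, 342 and 296 CPM in WT and 302, 370.0 and 340.0 CPM in 200M (log2 fold change 0.10 ± 0.10, adjusted p = 0.529). The lowered members were Rab3d (-0.98), a GTPase of dense granules, Syt13 (-0.66) and Unc13b (-0.41). The Unc13b call was lost without 200M replicate 1, 200M replicate 3 or WT replicate 2, and without WT replicates 2 and 3 together (adjusted p = 0.119 in the last).

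Receptors were raised over most transmitter classes. All 4 AMPA receptor subunits tested were raised, from 0.52 to 0.78, as were 4 of 5 NMDA subunits, 7 of 10 GABA-A subunits, both GABA-B subunits and all 3 glycine receptor genes. Of the 5 kainate receptor genes 0 were called, and the most abundant of them, Grik5, stood at 87.5, 111, 111 and 111 CPM in WT and 106, 102 and 109.7 CPM in 200M. Grin2b, an NMDA receptor subunit, stood at 0.275, 0.584, 0.592 and 0.852 CPM in WT and 7.51, 8.49 and 6.49 CPM in 200M (log2 fold change 3.64 ± 0.29, adjusted p = 5.41e-06). Gabra3, a GABA-A subunit, and Gabbr2, a GABA-B subunit, changed by 2.41 ± 0.22 and 2.28 ± 0.21 (adjusted p = 1.47e-05 and 1.60e-05). Many of these transcripts stayed low in absolute terms, since Grin2b averaged under 8 CPM in 200M.

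Ion channels that shape pituitary and neuronal firing moved in both directions. Cacna1i, a T-type calcium channel, stood at 27.2, 27.3, 30.0 and 23.4 CPM in WT and 73.2, 62.0 and 63.7 CPM in 200M (log2 fold change 1.30 ± 0.10, adjusted p = 5.24e-06). The sodium channels Scn2a and Scn8a moved apart, at 17.3, 10.9, 13.4 and 16.9 CPM in WT and 29.6, 39.7 and 43.8 CPM in 200M for Scn2a (log2 fold change 1.37 ± 0.18, adjusted p = 0.000212). Scn8a stood at 127, 141, 136 and 149.7 CPM in WT and 85.5, 85.9 and 86.0 CPM in 200M (log2 fold change -0.69 ± 0.08, adjusted p = 0.000129). It was the single lowered member of its list. Among potassium channels, the leak channels Kcnk3 and Kcnk2 changed by 1.25 ± 0.12 and 0.83 ± 0.09, whereas Kcnh3, Kcnh8 and Kcnk1 were lowered at -1.92 ± 0.27, -0.51 ± 0.10 and -0.68 ± 0.13. Kcnh2, the ERG channel, was the most abundant member not called (0.21 ± 0.09, adjusted p = 0.135).

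In the cytoskeleton list, the microtubule-associated proteins Map1a and Map2 changed by 1.04 ± 0.08 and 1.14 ± 0.09 (adjusted p = 2.41e-06 and 3.71e-06), and Map2 stood at 205, 177, 209.8 and 208 CPM in WT and 415, 473 and 430.0 CPM in 200M. Stmn4, a stathmin that destabilises microtubules, was nearly absent from WT at 0.413, 0.25, 0 and 0.213 CPM and stood at 4.38, 5.62 and 4.06 CPM in 200M (log2 fold change 4.24 ± 0.40, adjusted p = 1.91e-05). Tuba1a was not called (-0.19 ± 0.14, adjusted p = 0.359). Of 22 neuronal transcription regulators 3 were raised (13.6%) and 1 was lowered (4.55%), beside 11.7% and 9.77% over all genes. Sox11 was raised (1.06 ± 0.21, adjusted p = 0.00452), and Rest, the repressor of neuronal genes in other tissues, gave -0.01. The calls of the other members, St18, Brsk2 and Scrt1, were each lost without 200M replicate 2, and St18 and Brsk2 also without 200M replicate 3 and WT replicate 2, and 3 members were lowered without WT replicate 1 or 4.

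Several of the raised genes of smallest p also belong to excitable cells. Trank1 stood at 1.79, 1.92, 0.986 and 2.13 CPM in WT and 29.0, 36.8 and 37.1 CPM in 200M (log2 fold change 4.25 ± 0.19, adjusted p = 4.31e-08). Vsnl1, a neuronal calcium sensor, stood at 0.413, 0.751, 0.592 and 0.745 CPM in WT and 14.0, 15.1 and 13.0 CPM in 200M (log2 fold change 4.40 ± 0.23, adjusted p = 1.98e-07). In both genes the lowest 200M library lay more than 10-fold above the highest WT library. Dpp6, an auxiliary subunit of A-type potassium channels, and Prkcb, a protein kinase C isoform, changed by 1.78 ± 0.09 and 1.88 ± 0.10. Others have known roles outside neurons: Col24a1, a fibrillar collagen, changed by 1.99 ± 0.10, Hmcn2, a hemicentin of the extracellular matrix, by 2.23 ± 0.12, Mylk, the myosin light chain kinase, by 2.26 ± 0.13, and Podxl2, a sialomucin, by 1.85 ± 0.11. Among called genes without overlap and with at least 5 CPM in the higher group, the largest rises were completed by Akr1cl (an aldo-keto reductase, 4.27), Mgarp (a mitochondrial protein, 4.05) and Crisp1 (a cysteine-rich secretory protein, 3.83).

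Mesenchymal genes were not uniformly raised. Of 43 tested, 16 were raised, 3 lowered and 24 not called (median 0.43). Thy1, a surface glycoprotein of fibroblasts and neurons, stood at 39.7, 47.5, 47.1 and 59.9 CPM in WT and 105, 96.4 and 126 CPM in 200M (log2 fold change 1.16 ± 0.13, adjusted p = 8.72e-05). Msn, the moesin that links membrane to actin, changed by 0.68 ± 0.08 and Spp1, or osteopontin, by 1.07 ± 0.16 (adjusted p = 9.15e-05 and 0.000609). The most abundant called member moved the other way: Col1a2, a chain of type I collagen, stood at 615, 874, 753 and 515 CPM in WT and 363, 264 and 248 CPM in 200M (log2 fold change -1.24 ± 0.18, adjusted p = 0.000439), while Col1a1, the other chain, gave 0.46 and was not called. Snai2 (-1.33 ± 0.34), a Snail family inducer of mesenchymal change, was also lowered, and its call was lost without any one of the 200M libraries (adjusted p up to 0.0587).

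Gonadotropes produce the hormones whose surge drives ovulation, and their hormone genes did not move together. Lhb, the beta subunit of luteinizing hormone, stood at 295, 302, 299 and 217 CPM in WT and 54.0, 79.4 and 30.4 CPM in 200M (log2 fold change -2.33 ± 0.25, adjusted p = 4.51e-05). Cga, the alpha subunit shared with follicle-stimulating hormone and thyrotropin, stood at 1544, 1173, 1489 and 1507 CPM in WT and 752, 791 and 908 CPM in 200M (log2 fold change -0.81 ± 0.11, adjusted p = 0.000322). In both genes every 200M library lay below every WT library. Fshb, the beta subunit of follicle-stimulating hormone, stood at 80.6, 40.9, 34.9 and 68.6 CPM in WT and 112, 78.3 and 80.7 CPM in 200M (log2 fold change 0.67 ± 0.24, adjusted p = 0.0673), with overlap between groups. Lhb overlaps Ruvbl2 on the other strand, and unstranded reads from these genes cannot be told apart.

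Among the receptor and transcription factor genes of gonadotropes, Smad3 was called lowered (-0.37 ± 0.10), a call that was lost without any one of the 200M libraries. Gnrhr, the receptor for gonadotropin-releasing hormone, stood at 88.0, 50.8, 48.5 and 73.4 CPM in WT and 74.7, 85.6 and 65.7 CPM in 200M (log2 fold change 0.21 ± 0.18, adjusted p = 0.454). Nr5a1, or SF-1, a factor that activates Lhb, was higher in 200M at 52.1, 67.7 and 63.1 CPM against 29.4, 27.1, 34.5 and 37.9 CPM in WT (log2 fold change 0.93 ± 0.13, adjusted p = 0.000383). Egr1, the immediate early factor that couples GnRH to Lhb, ranged from 19.1 to 629 CPM within WT and from 31.4 to 132 CPM within 200M (log2 fold change -1.92 ± 0.89, adjusted p = 0.15). The homeobox factors Pitx1 (-0.20), Lhx3 (-0.29) and Isl1 (0.11) were not called. Lhx4 was raised from under 1 CPM (2.08 ± 0.45, adjusted p = 0.00692), and Foxl2 (0.78 ± 0.22), Foxp2 (0.57 ± 0.15) and Gata2 (0.39 ± 0.12) were raised with calls that were lost in leave-one-out fits: Foxl2 without 200M replicate 1 or 2 or WT replicate 1 or 2, Foxp2 without 200M replicate 2 or 3, and Gata2 without 200M replicate 1 or 3 or WT replicate 1 or 3. Inha, the inhibin alpha subunit, was lowered (-0.69 ± 0.13, adjusted p = 0.00279), as was Tgfbr3l (-0.73 ± 0.15, adjusted p = 0.00493), a gonadotrope co-receptor for inhibin B. Inhbb gave 0.10 ± 0.16. Of the 23 gonadotrope genes tested 6 were raised (26.1%) and 5 lowered (21.7%), beside 11.7% and 9.77% over all genes. The raised members numbered 3 when WT replicates 2 and 3 were left out.

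The lactotrope hormone, prolactin, was the most abundant hormone transcript in WT and was lowered in 200M. Prl stood at 208693, 201065, 164151 and 189618 CPM in WT and 71087, 51673 and 57871 CPM in 200M (log2 fold change -1.66 ± 0.13, adjusted p = 3.40e-06), with the highest 200M library below the lowest WT library. Pou1f1, or PIT-1, which activates Prl, Gh and Tshb, stood at 261, 206, 189.7 and 182 CPM in WT and 257, 201 and 197 CPM in 200M (log2 fold change 0.06 ± 0.13, adjusted p = 0.804). The dopamine receptor Drd2, through which dopamine restrains prolactin, gave -0.28 ± 0.12 (adjusted p = 0.131), and estrogen receptor Esr1 gave 0.09 ± 0.08 (adjusted p = 0.483). Other lactotrope genes were raised, among them the prolactin receptor Prlr (0.74 ± 0.14), the neuropeptide galanin (1.20 ± 0.28), endothelin Edn3 (1.53 ± 0.16) and the ETS factor Etv1 (0.85 ± 0.15), while Angpt1 was lowered (-0.89 ± 0.16). In total 4 of 13 were raised (30.8%) and 2 lowered (15.4%), beside 11.7% and 9.77% over all genes.

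**Figure D3:**
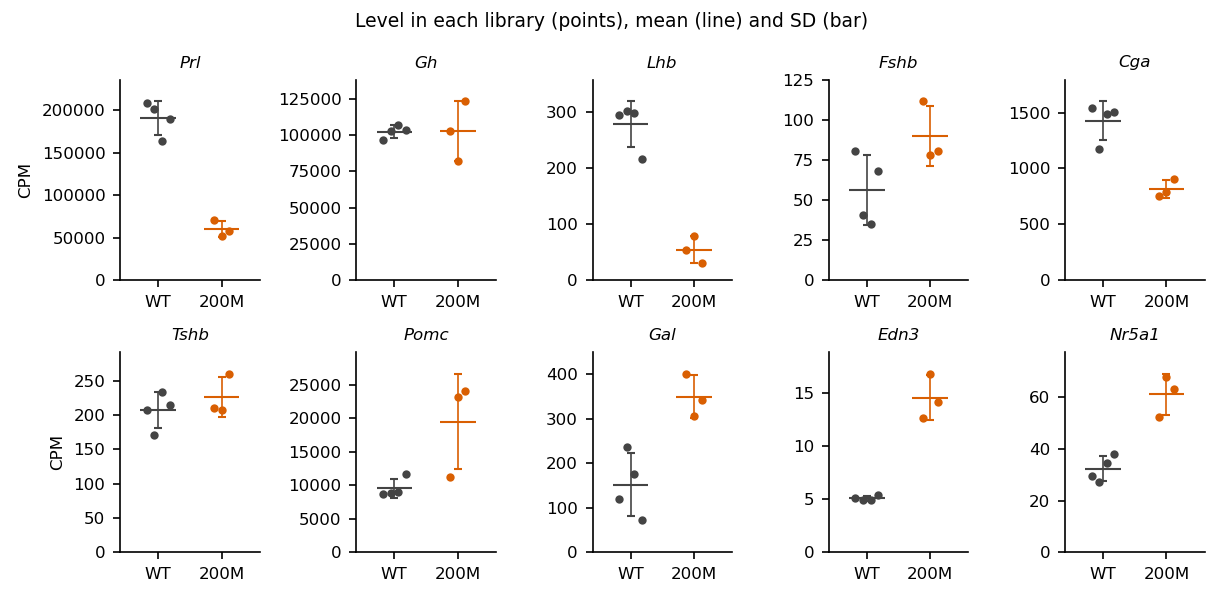
Level in CPM (y axis, linear from 0) of pituitary hormone and regulator genes in each WT library (4 points) and each 200M library (3 points), with the group mean as a line and the SD as a bar. Prl, Lhb and Cga are lower in every 200M library than in any WT library, Gh overlaps between groups, and 200M replicate 1 lies apart from the other 200M libraries in Pomc.

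Somatotrope and thyrotrope hormones did not differ detectably. Gh stood at 96415, 102600.0, 107280.0 and 103520.0 CPM in WT and 102612, 81985 and 123234 CPM in 200M (log2 fold change 0.00 ± 0.12, adjusted p = 0.993), and Ghrhr, the receptor for growth hormone-releasing hormone, gave -0.07 ± 0.11. Of 14 somatotrope genes tested, Wnt10a (0.86 ± 0.17) and the somatostatin receptor Sstr2 (1.29 ± 0.30) were raised and 0 were lowered, with 4 raised without WT replicate 3. The raised share of 14.3% was close to the 11.7% over all genes. Tshb, the beta subunit of thyrotropin, stood at 207, 171, 233 and 215 CPM in WT and 211, 207 and 260.0 CPM in 200M (log2 fold change 0.13 ± 0.12, adjusted p = 0.458). Around it, the receptor Trhr for thyrotropin-releasing hormone was raised (1.42 ± 0.22, adjusted p = 0.000826), as was Dio2 (0.70 ± 0.10, adjusted p = 0.0005), the deiodinase that makes active thyroid hormone.

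Corticotrope and melanotrope genes were raised in 8 of 12 tested and lowered in 0 (median 0.67), but the rise was uneven between libraries. Pomc, the precursor of adrenocorticotropic hormone and melanocyte-stimulating hormone, stood at 8696, 8893, 9092 and 11731 CPM in WT and 11289, 23209.8 and 24093 CPM in 200M (log2 fold change 1.02 ± 0.21, adjusted p = 0.00469). 200M replicate 1 lay inside the WT range and the other 200M libraries far above it. Pcsk2, the convertase of melanotropes, stood at 215, 189, 225 and 302 CPM in WT and 294, 489 and 468 CPM in 200M, and Pax7, the factor that sets melanotrope identity, at 41.8, 40.4, 46.3 and 48.2 CPM in WT and 48.4, 79.1 and 72.0 CPM in 200M. Both showed the same split within 200M, the Pax7 call was lost without 200M replicate 2 or 3, and the summed level of 5 melanotrope genes, which Pomc dominates, was 9232 to 12467 CPM in WT and 11900 to 25176 CPM in 200M. The amount of intermediate lobe in each dissection was not measured and its part in these values was not tested. Nr3c1, the glucocorticoid receptor, had no such split, at 73.8, 62.5, 69.8 and 83.5 CPM in WT and 137, 129 and 113 CPM in 200M (log2 fold change 0.80 ± 0.11, adjusted p = 0.000281). Crhr1, the receptor for corticotropin-releasing hormone, was raised (0.71 ± 0.14, adjusted p = 0.00354), and the corticotrope factor Tbx19 gave 0.30 ± 0.16 (adjusted p = 0.222). The raised members numbered 5 without 200M replicate 2, 200M replicate 3 or WT replicates 2 and 3.

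Stem and folliculostellate genes were raised in 3 of 16 tested (18.75%, beside 11.7% over all genes): Sox9 (0.67 ± 0.17), Cd9 (0.53 ± 0.09) and Notch2 (0.43 ± 0.11). Sox2, the stem cell factor itself, stood at 16.4, 13.0, 14.4 and 13.9 CPM in WT and 16.3, 18.6 and 18.7 CPM in 200M (log2 fold change 0.32 ± 0.13, adjusted p = 0.109). The Sox9 and Notch2 calls were lost without 200M replicate 1 or 3, Notch2 also without WT replicate 2, which left 1 call.

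Secretory granule genes were raised in 11 of 26 and lowered in 2. Vgf, the precursor of several secreted peptides, stood at 36.7, 51.0, 34.7 and 19.5 CPM in WT and 163, 200.4 and 189 CPM in 200M (log2 fold change 2.37 ± 0.22, adjusted p = 1.89e-05). Pam, the enzyme that amidates peptide hormones, changed by 0.46 ± 0.08 and Cadps, which primes dense-core vesicles, by 0.86 ± 0.12 (adjusted p = 0.00122 and 0.0004). Ica1 (-0.65 ± 0.10) and Rab27a (-0.28 ± 0.08) were lowered, the latter not in every leave-one-out fit, and Pcsk1, the main convertase of the anterior lobe, gave 0.22 ± 0.11 (adjusted p = 0.154).

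Steroid receptors and estrogen-responsive genes split, with 5 of 16 raised (31.25%) and 4 lowered (25.0%), beside 11.7% and 9.77% over all genes. Greb1, a classical target of estrogen receptor, stood at 616, 661, 656 and 508 CPM in WT and 342, 405 and 346 CPM in 200M (log2 fold change -0.74 ± 0.11, adjusted p = 0.000465). The progesterone receptor Pgr gave -0.36 ± 0.15 (adjusted p = 0.102), and the mineralocorticoid receptor Nr3c2 was raised (0.78 ± 0.12, adjusted p = 0.000921). The raised members numbered 3 without 200M replicate 1, 200M replicate 3, WT replicate 1, WT replicate 2 or WT replicates 2 and 3, and the lowered members numbered 2 without any one 200M library, WT replicate 1 or WT replicate 2 and 1 without WT replicates 2 and 3.

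TGF-beta, BMP and activin signalling held 7 raised and 7 lowered of 36 tested (19.4% each, beside 11.7% and 9.77% over all genes). The lowered side included direct targets of BMP signalling, Id1 at 14.9, 17.5, 22.9 and 13.7 CPM in WT and 6.47, 5.99 and 4.67 CPM in 200M (log2 fold change -1.57 ± 0.21, adjusted p = 0.000321) and Id3 (-1.04 ± 0.14, adjusted p = 0.000299). The raised side included receptors Tgfbr3 (0.49 ± 0.12) and Tgfbr1 (0.40 ± 0.10) and the BMP antagonist Grem1 (2.59 ± 0.45), with the Tgfbr1 call lost without 200M replicate 1 or 3. Smad4 gave 0.02 ± 0.09. The raised count fell to 2 without 200M replicate 1 and to 4 without 200M replicate 3, WT replicate 1 or WT replicate 2, and the lowered count to 4 or 3 without 200M replicate 2 or 3. Without WT replicates 2 and 3 it was 2 raised and 3 lowered.

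Imprinted genes, which are expressed from 1 parental allele, were raised in 12 of 26 tested and lowered in 2, Mest and Mirg (median 0.40). The calls of Mest and Mirg were each lost without any one 200M library. Peg10 stood at 103, 143, 119 and 77.3 CPM in WT and 457, 390.2 and 376 CPM in 200M (log2 fold change 1.88 ± 0.16, adjusted p = 9.99e-06). Igf2 stood at 5.91, 5.09, 6.90 and 6.39 CPM in WT and 16.9, 21.1 and 19.9 CPM in 200M (log2 fold change 1.69 ± 0.16, adjusted p = 1.77e-05). Grb10, an adaptor that restrains insulin signalling, changed by 1.23 ± 0.10, and H19, which neighbours Igf2 but is expressed from the other allele, by 2.26 on the log2 scale. Meg3, the most abundant member, was level at 9013, 9155, 8765 and 8733 CPM in WT and 8658, 9078 and 8274 CPM in 200M.

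Among housekeeping functions, ribosomal protein genes were lowered in 38 of 79 tested and raised in 0 (median -0.42). Rpl4 stood at 1173, 1187, 1023 and 951 CPM in WT and 762, 755 and 805 CPM in 200M (log2 fold change -0.49 ± 0.09, adjusted p = 0.00336). The count was 20, 17 and 17 without 200M replicates 1, 2 and 3, 25 without WT replicate 2, 16 without WT replicates 2 and 3, and 25 when the trend of fold change with exon length was removed. Ribosomal protein transcripts are short (median exon length 1830 bases) and share sequence with many processed pseudogenes, so their counts of uniquely assigned reads are uncertain. Oxidative phosphorylation, another set of short transcripts (median 1587 bases), gave 1 raised and 2 lowered of 79, with 10 lowered without WT replicate 4 and 0 lowered without 200M replicate 1, 200M replicate 2, WT replicate 2 or WT replicates 2 and 3 and with the length trend removed. Chaperones and stress genes of the endoplasmic reticulum were lowered in 6 of 27 (median -0.21), among them Atf4 (-0.53 ± 0.12) and Derl3 (-1.19 ± 0.27, not called without 200M replicate 2), but in 2 without any one of the 200M libraries and in 12 without WT replicate 4. Of 23 cell cycle genes 2 were lowered (8.70%, beside 9.77% over all genes), Mcm2 (-0.69 ± 0.12) and Ccnd1 (-0.45 ± 0.10), with 4 lowered without WT replicate 4 and Ccnd1 not called without WT replicates 2 and 3.

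Immediate early genes varied widely within groups. Of 21 tested, 1 was raised (Egr3, 4.76%) and 2 were lowered (Npas4 and Btg2, 9.52%), beside 11.7% and 9.77% over all genes. Nr4a1, an orphan nuclear receptor induced by stimulation, stood at 64.2, 1487, 983 and 52.1 CPM in WT and 386, 101 and 85.2 CPM in 200M (log2 fold change -1.77 ± 0.98, adjusted p = 0.226). WT replicates 2 and 3 were more than 10-fold above WT replicates 1 and 4, and 200M replicate 1 lay between them. The median log2 fold change of the list was -1.32 with all libraries and 0.26 without WT replicates 2 and 3, so no direction is given. Without WT replicates 2 and 3, 24 of the 128 calls of genes chosen for naming were lost, among them those of Gm15884, Foxl2, Foxp2, Gata2, Smad3, Pax7, Notch2, St18, Brsk2, Scrt1, Unc13b, Rab27a, Ccnd1, Tgfbr1, Mest, Mirg and Btg2 (adjusted p from 0.0551 for Mirg to 0.415 for Btg2). The lowered members numbered 1 without 200M replicate 2 or 3 or WT replicate 2 or 3, 6 without WT replicate 1 and 11 without WT replicate 4.

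Markers of cells other than the endocrine ones were read beside these results. Over all genes 11.7% were raised and 9.77% lowered, and in lists this short a small count cannot be set apart from those shares. Posterior lobe and pituicyte genes were raised in 3 of 10 and summed to 139 to 176 CPM in WT and 190 to 243 CPM in 200M, without overlap. Of 17 hypothalamic neuron transcripts 11 stayed under 1 CPM in every library and Pmch, Crh and Kiss1 had 0 counts. Of the 5 tested, Oxt (1.25) and Slc32a1 (1.23) were raised and Gad2 (-0.91) was lowered, with 1 raised without 200M replicate 1 or 2, WT replicate 1 or 2 or WT replicates 2 and 3 and by DESeq2, and the list summed to 89.7 to 144 CPM in WT and 102 to 118 CPM in 200M. Macrophage genes were raised in 3 of 12 and summed to 142 to 171 CPM in WT and 185 to 271 CPM in 200M. Fibroblast and pericyte genes summed to 870 to 1191 CPM in WT and 670 to 860 CPM in 200M, but Col1a2 alone made up a large part of these sums. Of the 10 genes 2 were raised and 1 was lowered, Col1a2, and the median log2 fold change was 0.37. The lower sum is therefore not a fall of the list as a whole. Endothelial sums overlapped, at 349 to 457 and 390 to 485 CPM, with 1 of 10 raised (10.0%, under the share over all genes). Erythrocyte sums were 51.8 to 105 and 86.9 to 274 CPM with 2 of 5 raised, and the 2 lymphocyte genes tested were not called. Oligodendrocyte genes gave 1 raised and 1 lowered of 4 tested, with 0 raised without 200M replicate 2 or 3 or WT replicate 1, 2 or 3 and by DESeq2. The count of raised members was 1 without 200M replicate 1 or 2 for the posterior lobe, 1 without 200M replicate 3 for macrophages, 0 without 200M replicate 2 for endothelium, 4 or 1 without 200M replicate 2 or 3 for fibroblasts, and for erythrocytes 0 without 200M replicate 3, WT replicate 1, WT replicate 3 or WT replicates 2 and 3, 1 without 200M replicate 1 or WT replicate 4 and 4 without 200M replicate 2. The part of these cells in the rise of neuronal and mesenchymal genes was not tested.

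**Figure D4:**
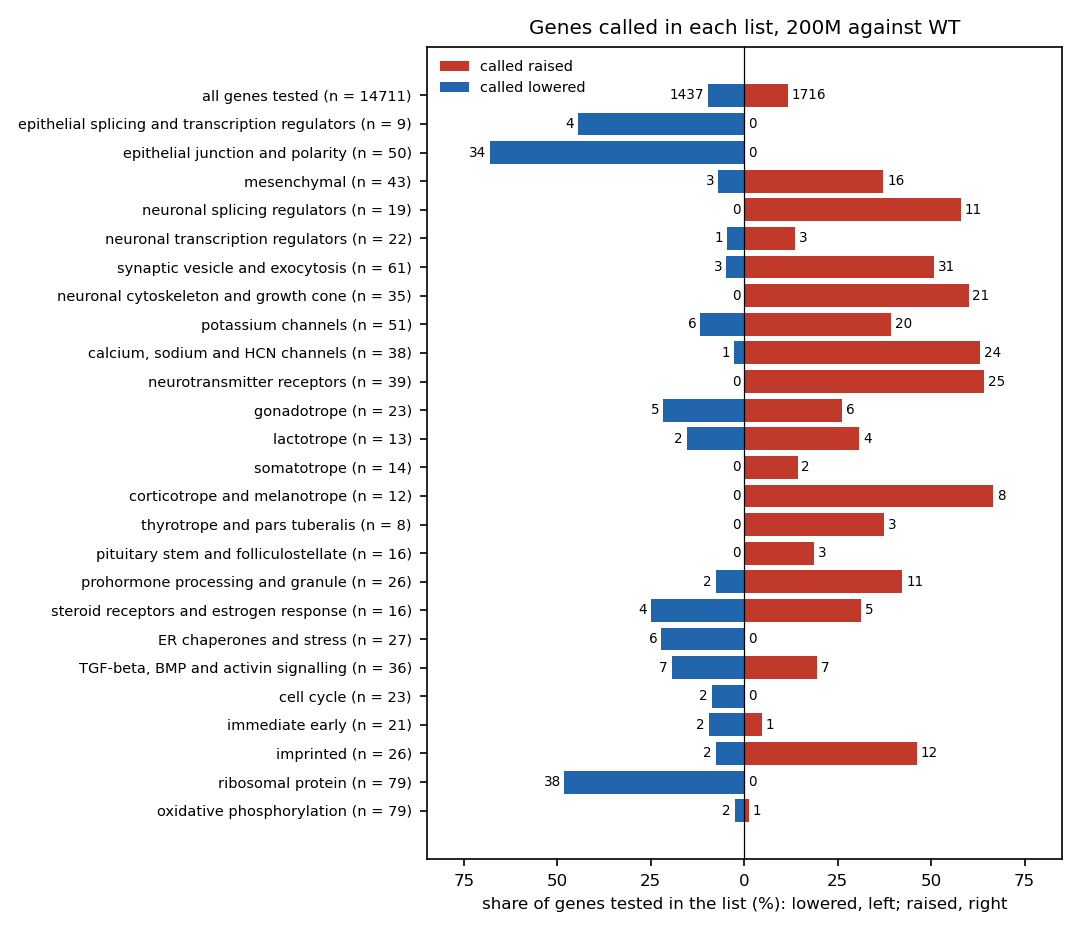
Share of the genes tested in each list that were lowered (bars to the left) or raised (bars to the right) in 200M, in percent, for the 25 gene lists with at least 8 genes tested and for all genes tested. Epithelial junction and polarity genes (68.0% lowered) reach furthest to the left and corticotrope and melanotrope genes (66.7% raised) furthest to the right, followed by neurotransmitter receptors (64.1% raised), beside 9.77% lowered and 11.7% raised over all genes.

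The 200M effect in pituitary was compared with that in hypothalamus of mice of the same cohort, where neuronal genes are expressed at their normal high level. In hypothalamus (4 WT and 3 200M libraries) 1 of 16067 genes passed the same edgeR test, Gh, and 2904 had an unadjusted p under 0.05. With DESeq2 the study itself reported many more genes for this comparison, so the count depends on the test. A count of 1 does not show that the other genes were unchanged. Zeb1 ranged from 122 to 142 CPM in WT and 108 to 119 CPM in 200M hypothalamus (log2 fold change -0.26 ± 0.09, adjusted p = 0.161). The interaction, the pituitary effect minus the hypothalamus effect in 1 model, was 0.81 ± 0.12 for Zeb1 (adjusted p = 0.000118). Across 17180 genes, 3000 interactions (17.5%) passed the test. Vsnl1 averaged 483 CPM in WT and 513 CPM in 200M hypothalamus, against 0.625 and 14.0 CPM in pituitary (interaction 4.32 ± 0.23), Trank1 340 and 309 CPM (4.39 ± 0.24) and Oprl1, the nociceptin receptor, 142 and 141 CPM (3.38 ± 0.22). The pituitary levels of these genes in 200M stayed well under their hypothalamic levels. Dnm1 and Dpp6 gave interactions of 1.92 ± 0.11 and 1.89 ± 0.12. For each of these genes other than Zeb1 the hypothalamus difference lay within 0.14 of zero on the log2 scale and did not pass the test.

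The same genotypes were also measured in pituitary of young virgin females of 8 to 12 weeks (3 WT and 4 200M libraries, none shared with the older mice). Those libraries were stranded, depleted of ribosomal RNA, read from both ends and counted by another tool, so age, breeding history and library method cannot be told apart. Of the 1716 genes raised in older mice, 1674 were tested in young mice, of which 1624 (97.0%) differed in the same direction and 1155 (69.0%) were also called raised. Of the 1437 lowered genes 1395 were tested, 1354 (97.1%) differed in the same direction and 869 (62.3%) were called lowered. Among genes not called in older mice 71.4% shared their direction. The young comparison itself called 2051 of 17524 genes raised (11.7%) and 1766 lowered (10.1%). Called in opposite directions were Sh3bgrl, raised in older mice, and Lair1, lowered in older mice. In size, these genes called in older mice and tested in both cohorts had log2 medians of 0.68 (raised) and -0.55 (lowered) in older mice. In young mice the medians were 0.50 and -0.43. Choosing genes by their older values tends to enlarge the older medians, so these medians do not show a larger effect in older mice.

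Zeb1 rose to a similar degree in young mice (0.52 ± 0.06), with an interaction of -0.03 ± 0.10 (adjusted p = 0.99991), as did the fall of Esrp1 (-3.88 in young), Epcam (-3.29) and Rab25 (-3.83). Some hormone genes gave different values side by side: Pomc was at 1.02 in older and 0.01 in young mice, Fshb at 0.67 and -0.12, and Lhb at -2.33 and -1.69, and none of these differences passed the interaction test. An interaction passed in 5 of 18344 genes (0.0273%). Rreb1, a zinc finger transcription factor, was raised in older mice at 132, 139 and 121 CPM against 77.8, 79.6, 79.1 and 70.4 CPM in WT (log2 fold change 0.77 ± 0.08), whereas in young mice it was at -0.04 (interaction 0.76 ± 0.11, adjusted p = 0.0101). Leng1 fell by 0.54 in older and by 2.05 in young mice (interaction 1.46 ± 0.19, adjusted p = 0.00482). It overlaps Tmc4, and the cohorts were counted with and without strand and with different annotations. Xkr6 (-0.93 ± 0.15, adjusted p = 0.0295) and Gm4673 (-1.32 ± 0.22, adjusted p = 0.0377) passed with all libraries, as did Pcdhgb8, which is named after its values were seen. The Xkr6 call was lost without 200M replicate 1 or 2 or WT replicate 2 (adjusted p up to 0.284) and the Gm4673 call without 200M replicate 2 or 3 or WT replicate 2 or 3 (adjusted p up to 0.375), whereas Rreb1 and Leng1 passed in each leave-one-out fit. The number of such genes was 2 without 200M replicate 2 or WT replicate 2, 12 without WT replicate 1 and 10 without WT replicate 4.

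**Figure D5:**
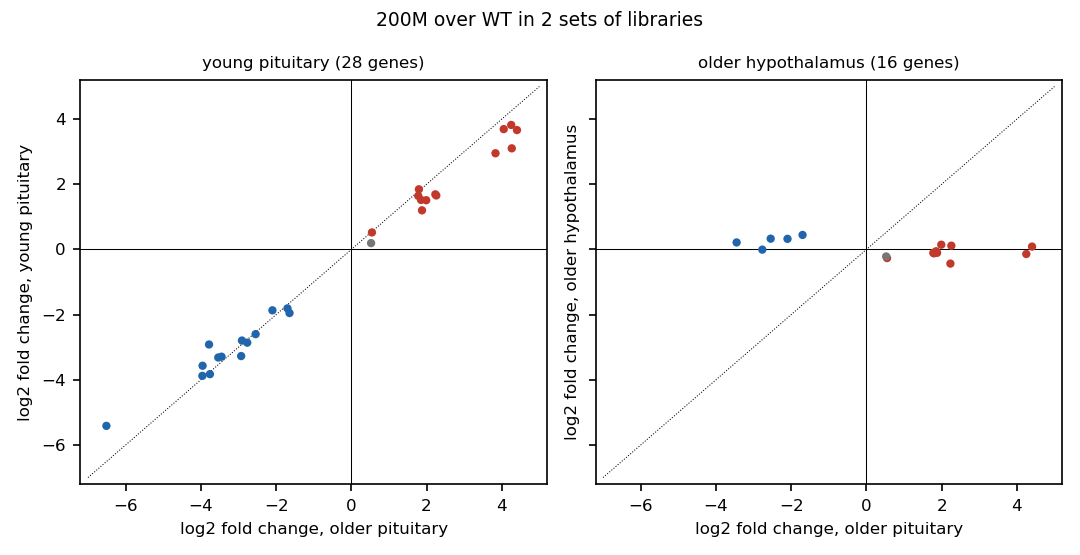
The log2 fold change of 200M over WT in young pituitary (left) and in older hypothalamus (right) is plotted on the y axis against that in older pituitary on the x axis, for Zeb1, Zeb2, the miR-200 hosts and the genes of smallest p or largest change in older pituitary. The young values lie along the dotted line of equal change, while the hypothalamus values, such as -0.14 for Trank1 and 0.09 for Vsnl1, lie near zero.

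Genes whose annotated 3′ UTR holds an 8mer for a miR-200 seed were described by their counts. Of 13371 genes with a 3′ UTR 12.4% were raised and 9.89% lowered. Of the 1134 with at least 1 CAGTATTA or CAGTGTTA, 23.2% were raised and 4.06% lowered, with a median log2 fold change of 0.14 against -0.02 for the 12237 with neither. Of the 125 with at least 2, 35.2% were raised and 0 lowered (median 0.28). These genes also had longer 3′ UTRs, with a median of 2723 bases against 1133. In 4 equal groups by 3′ UTR length, from the shortest to the longest, the raised share was 6.25%, 15.0%, 19.5% and 27.4% of the genes with a site against 5.95%, 9.09%, 13.4% and 18.9% of those with neither, and the lowered share 6.25%, 7.14%, 4.38% and 3.16% against 13.8%, 11.7%, 9.62% and 5.68%. The first group held 32 genes with a site, of which 2 were raised. Beyond Zeb1, the raised genes with at least 3 sites were Synj1, a phosphatase of vesicle recycling (0.59), Ppm1e (0.58), Qk (0.41) and Ccdc50 (0.37). The other genes with at least 3 sites were not called, among them D10Wsu102e and Klhl24, with 4 sites each and 0.09 each.

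The promoter letters shown at the start were also counted over all genes. CAGGTG or CAGGTA occurred on either strand in 29.5% of all 32851 RefSeq promoters and in 25.3% of those of genes tested. The share was 24.0% for raised genes, 32.2% for lowered genes, 46.8% for genes lowered at least 2-fold and 65.6% for genes lowered at least 4-fold (59 of 90 promoters), of which 38.9% held 2 or more copies. For genes raised at least 4-fold it was 21.0%. Within the epithelial lists, 23 of 30 promoters of lowered members held the letters, against 6 of 20 for members that were not called. These promoters belong to 21 lowered genes and 13 genes not called, so some genes count more than once. The junction and polarity list held 34 lowered members and 16 not called, and the regulator list 4 and 5, so a large part of the lowered members had no promoter entry. List members without a promoter entry, such as Esrp1, are left out.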

How the data were processed

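RNA was measured by poly(A)-selected, unstranded RNA sequencing of whole pituitary. The authors aligned reads to mm10 (GRCm38) with STAR 2.7.1a and assigned them to Ensembl release 87 genes with htseq-count 0.9.1, and the deposited values are raw counts per gene and library. The deposited tables also hold the authors' own log2 fold changes and p-values from DESeq2 1.18, and 29 columns of normalized values, none of which were used. Replicates are separate mice per the study's methods. Names were paired for 99.48% of IDs, and lengths, overlaps and UTRs come from GENCODE M21.

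The counts of the 7 libraries entered the quasi-likelihood F test of edgeR 4.0.16, run with limma 3.58.1 in R 4.3.3, with filterByExpr, TMM scaling and Benjamini-Hochberg adjustment over all 14711 genes at an adjusted p under 0.05. The SE was obtained by dividing the log2 fold change by the root of F. CPM use TMM-scaled library sizes. Interactions with tissue and with cohort were terms of 1 model over both sets. In counts simulated for the 14711 genes of this comparison with 200 genes changed, 142 genes were called, 5 falsely, and 48% of 1.5-fold and 89% of 2-fold changes were recovered. Every simulated gene was given the typical spread for its level, and far fewer genes were changed than were called in the data. These rates therefore describe the simulated setting only. Replicate pairs differed by a chi-square of 4.76 to 14.0 per degree of freedom, so no library was a copy of another. Same-numbered libraries correlated at -0.051 to 0.006 in their deviations, so the numbers did not pair them.

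Members and gene lists were chosen with earlier results of these data known. The genes named were Zeb1, Zeb2 and the hosts of miR-200. Also named were the 10 raised and 10 lowered genes of smallest p, and the 5 of largest change in each direction, among called genes without overlap between groups and with at least 5 CPM in the higher group. From the pituitary cell type lists the hormone, receptor and factor genes were named, from each list up to 3 members per direction and the most abundant member not called, and from each interaction the 6 genes of smallest p with at least 5 CPM. Some genes that this rule chose are not reported here. Members given for their role outside this rule, such as Cdh1, Col1a1, Rest, H19, Oxt, Slc32a1, Gad2 and Synj1, and the structural groupings were chosen after their values were seen. Alternatives were DESeq2 1.42.0, other scalings, no count filter, the 3 genotypes together, removal of a length trend, a replicate block, a 2-fold rule and each library left out.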

Additional observations from a re-analysis of the deposited data

Results flagged for a closer look

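In the WT group of 4 libraries, 12 of the 196 named genes had 1 library far from the others. This is close to the 1 in 20 that chance gives, so the count does not mark any library as aberrant. WT replicate 4 was apart for Lhb (217 CPM, others 295 to 302), Pomc (11731 CPM, others 8696 to 9092), Celf5 (5.75 CPM, others 4.26 to 4.42), Unc13b (81.0 CPM, others 94.6 to 97.2) and Tuba1a (78.8 CPM, others 115 to 119). WT replicate 3 was apart for Ap1m2 (42.6 CPM, others 47.3 to 47.7), Smad3 (108 CPM, others 85.2 to 88.0), Pappa2, a protease of insulin-like growth factor binding proteins (195 CPM, others 118 to 122), and Gm4673 (18.3 CPM, others 13.8 to 14.6). WT replicate 2 was apart for Cga (1173 CPM, others 1489 to 1544) and Map2 (177 CPM, others 205 to 210), and WT replicate 1 for Grik5 (87.5 CPM, others 110.5 to 110.8). The 200M group of 3 was not tested in this way.

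The 200M effect differed between older pituitary and older hypothalamus for Zeb1 (interaction 0.81 on the log2 scale), Vsnl1 (4.32), Dnm1 (1.92), Trank1 (4.39), Dpp6 (1.89) and Oprl1 (3.38), by the interaction term. It differed between older and young pituitary for Leng1 (1.46), Rreb1 (0.76), Xkr6 (-0.93) and Gm4673 (-1.32), of which the last 2 lost their call in leave-one-out fits (adjusted p up to 0.284 and 0.375), and age, breeding history and library method cannot be told apart there.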

How the results depend on the processing

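The number of genes called was 2775 by DESeq2, 3141 and 3125 with RLE and upper-quartile scaling, 3644 without the count filter, 3192 with the 3 genotypes together and 3085 with the length trend removed. Without the filter, 14 immediate early genes were lowered. Among them Nr4a1, which varied widely within WT, reached an adjusted p of 2.71e-67 by the edgeR test. Counts without the filter are therefore not a reliable measure of how stable the calls are. It was 837 with a 2-fold rule. With the replicate block it was 3668 (3507 with the length trend also removed), and since the numbers did not pair the libraries this says nothing of the size of the effect. Leaving out 1 library gave 1867 to 3768 calls, 1141 to 2005 raised and 724 to 1763 lowered. Leaving out WT replicates 2 and 3, an alternative chosen after seeing the data, gave 1966 calls and 713 lowered, and moved the raised share from 54.4% to 63.7%. Interactions with tissue numbered 2120 to 3503 in leave-one-out fits and 3232 with the replicate block. Interactions with cohort numbered 17 by DESeq2, 78 without the filter and 2 to 12 in leave-one-out fits. No replicate block was fitted for cohort, since the cohorts are different mice and the number on 1 young WT column is on no label. No called value of a named gene changed sign. The median of the immediate early list went from -1.32 to 0.26 without WT replicates 2 and 3, and the uncalled Zeb1 interaction with cohort lay between -0.08 and 0.08. Of the values of named genes under alternatives, 2851 kept their side of the threshold, 141 lost and 74 gained it, and 68 were uncalled values that moved. Of 128 named calls 29 were lost in at least 1 setting, and the cause was not tested. Depth limits genes near the filter such as Gm15884, and 3 libraries in 200M limit changes under 2-fold.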
